A study of Mus musculus with 8 samples.

Results

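Cholesterol and fatty acid synthesis genes were followed across 8 arrays of mouse spermatogonial stem cells grown in culture. These are the testis germ cells that renew themselves and give rise to sperm. The members were the probe sets that carry only 1 of 32 listed symbols in the array's annotation, with the brightest probe set standing for a gene. This gave 31 of the 19938 genes measured, namely 17 of 18 sterol enzymes, all 6 regulators and transport genes and all 8 fatty acid enzymes. Acat2, an acetyl-CoA acetyltransferase, has no expression values here, since its symbol stands alone on no probe set. It was counted only among the promoter windows below.

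The arrays fell into 3 groups. The serial-transplant long-culture group (titled "SSC_Aged in vivo and in vitro", 2 arrays) held stem cells that had been serially transplanted, with a stated donor age of 1500 days, after 14 to 18 months in culture. The young long-culture group ("SSC_Aged in vitro", 3 arrays) held cells of 8-day-old donors after 14 to 18 months in culture. The young short-culture group ("SSC_Not aged", 3 arrays) held cells of 8-day-old donors after 7 to 10 weeks. In the first group, the higher stated donor age and the transplantation cannot be told apart. The sources used here do not give strain, feeder cells or whether replicates were separate cultures. The p-values therefore reflect the spread between arrays alone, which may be technical. The comparisons ask how expression differs with donor and with time in culture.

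Animal cells build cholesterol from acetyl-CoA through mevalonate, isoprenoid phosphates, squalene and lanosterol, and they build fatty acids from the same acetyl-CoA. Transcription of both branches is driven by the SREBP proteins, encoded by Srebf1 and Srebf2. SCAP, encoded by Scap, carries them from the endoplasmic reticulum to be cut when sterols are low, and the proteins of Insig1 and Insig2 hold them back when sterols are plentiful. In the testis, cholesterol is the starting material of steroid hormones in Leydig cells, and the meiosis-activating sterols, intermediates just after the Cyp51 step, accumulate.

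Promoter sequence of 6 members, chosen after their values were seen, is shown. Of these, 4 are sterol enzymes with their highest group mean in the serial-transplant cells, as in most of that branch. Ebp and Insig2 had their lowest mean there. Among the 4, Hmgcs1 passed no test and overlapped young long culture. The RefSeq windows (GRCm38.p6) run from 250 bases before to 50 bases after the most upstream listed start, 5′ to 3′ on the gene's strand. Capitals mark CCAAT on either strand (ATTGG on the other) and, in Hmgcs1 alone, the sterol response element TCACNCCAC.
Hmgcs1, chr13:119690101-119690400, plus strand: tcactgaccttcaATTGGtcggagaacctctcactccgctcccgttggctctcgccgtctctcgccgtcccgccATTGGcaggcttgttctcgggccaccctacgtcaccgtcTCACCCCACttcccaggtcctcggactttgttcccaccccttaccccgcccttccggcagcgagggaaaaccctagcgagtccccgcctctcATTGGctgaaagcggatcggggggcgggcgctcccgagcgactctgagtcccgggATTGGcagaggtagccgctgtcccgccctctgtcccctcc
Mvd, chr8:122443373-122443672, minus strand: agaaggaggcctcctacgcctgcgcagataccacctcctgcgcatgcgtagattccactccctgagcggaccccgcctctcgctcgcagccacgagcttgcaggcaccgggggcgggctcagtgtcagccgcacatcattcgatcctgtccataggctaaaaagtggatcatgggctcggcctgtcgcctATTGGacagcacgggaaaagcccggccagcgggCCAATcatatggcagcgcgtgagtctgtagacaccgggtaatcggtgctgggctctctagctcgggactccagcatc
Idi1, chr13:8885356-8885655, plus strand: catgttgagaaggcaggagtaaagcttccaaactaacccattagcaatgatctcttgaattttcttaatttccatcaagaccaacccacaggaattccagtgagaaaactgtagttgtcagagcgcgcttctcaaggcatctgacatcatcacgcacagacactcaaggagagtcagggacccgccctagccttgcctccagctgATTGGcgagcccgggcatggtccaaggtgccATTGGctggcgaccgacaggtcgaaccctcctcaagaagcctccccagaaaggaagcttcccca
Msmo1, chr8:64733529-64733828, minus strand: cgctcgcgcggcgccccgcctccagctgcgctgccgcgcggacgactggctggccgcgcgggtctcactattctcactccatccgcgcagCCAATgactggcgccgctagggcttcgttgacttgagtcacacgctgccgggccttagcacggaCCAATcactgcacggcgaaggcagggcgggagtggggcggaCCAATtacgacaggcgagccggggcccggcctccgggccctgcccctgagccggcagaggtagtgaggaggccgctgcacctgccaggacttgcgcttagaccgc
Ebp, chrX:8193463-8193762, minus strand: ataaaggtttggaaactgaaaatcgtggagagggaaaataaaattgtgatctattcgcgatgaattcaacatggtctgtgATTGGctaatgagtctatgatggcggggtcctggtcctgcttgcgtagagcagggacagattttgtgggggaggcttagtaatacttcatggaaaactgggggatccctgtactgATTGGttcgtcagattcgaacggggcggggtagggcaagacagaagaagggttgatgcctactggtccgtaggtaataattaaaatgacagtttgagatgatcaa
Insig2, chr1:121332540-121332839, minus strand: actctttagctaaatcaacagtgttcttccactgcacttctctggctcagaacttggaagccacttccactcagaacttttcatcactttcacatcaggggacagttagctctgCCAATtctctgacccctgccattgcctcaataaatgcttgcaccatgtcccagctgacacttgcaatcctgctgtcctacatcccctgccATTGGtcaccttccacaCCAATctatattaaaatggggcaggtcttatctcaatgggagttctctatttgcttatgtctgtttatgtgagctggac

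Promoter windows were listed for 25 of the 32 symbols. These 25 genes, and the 15 sterol enzyme genes among them, include Acat2, which was not measured. CCAAT, the letters bound by the SREBP partner NF-Y, lay in a window of 14 of 15 sterol enzyme genes (93.3%), all but Acat2. It lay in 4 of 5 regulators and in 2 of 5 fatty acid enzymes, against 41.1% of the 27025 genes listed. Ebp and Insig2, whose levels ran opposite to most other sterol genes, held CCAAT as well. In Insig2 it lay only in the most upstream of the listed windows. GGGCGG, the letters bound by Sp1, lay in 93.3% of the sterol enzyme genes, against 38.2% of the genes listed. The genes listed were not limited to those measured or expressed here. The E-box CACGTG lay in 3 of 15 sterol enzyme genes, against 8.09% of the genes listed. The sterol response element, searched only as the exact letters TCACNCCAC, lay in 1 of these 25 genes, Hmgcs1, against 1.44% of the genes listed. Variants of these letters were not searched. Both strands were searched, all listed windows of a gene were counted, and no match of a motif overlapped a match of another in these windows. A match is a description of the letters and not of binding.

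Values are log2 signals, 1 per gene and array, with array medians between 6.90 and 6.98. A difference of 1 is a 2-fold change. All 31 members had a mean over 6.94, the median signal of the table, used here as a mark of dim signals because the files give no detection call. The 11 spermatogonial markers also lay above it, with list means of 10.47 to 10.49 in serial-transplant, 10.44 to 10.52 in young long-culture and 9.89 to 10.34 in young short-culture arrays. Young short-culture replicate 2 stood apart, correlating at 0.991 and 0.990 with its group, whose other replicates correlated at 0.996. With arrays centred on their medians, 1970 probe sets were called higher and 1331 lower in young long culture than in short culture, against 1573 and 1687 as deposited. In serial-transplant against young short culture, the split was 1294 and 1242 when centred, against 1037 and 1491.

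As a group, sterol enzymes were highest in the serial-transplant arrays and on median lowest in young short culture. Relative to each gene's mean over the 8 arrays, the 17 sterol enzymes had a median of 0.30 and 0.54 in the serial-transplant arrays. It was -0.26, 0.19 and 0.11 in young long culture and -0.26, -0.66 and 0.01 in young short culture, while the median of all genes stayed between -0.02 and 0.03. The serial-transplant arrays lay above all others, and the young groups overlapped. The 8 fatty acid enzymes spread less, with medians of 0.10 and 0.26 in serial-transplant, 0.02, 0.05 and 0.12 in young long-culture and -0.08, -0.43 and -0.06 in young short-culture arrays. Their long-culture groups overlapped and lay above short culture.

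**Figure D1:**
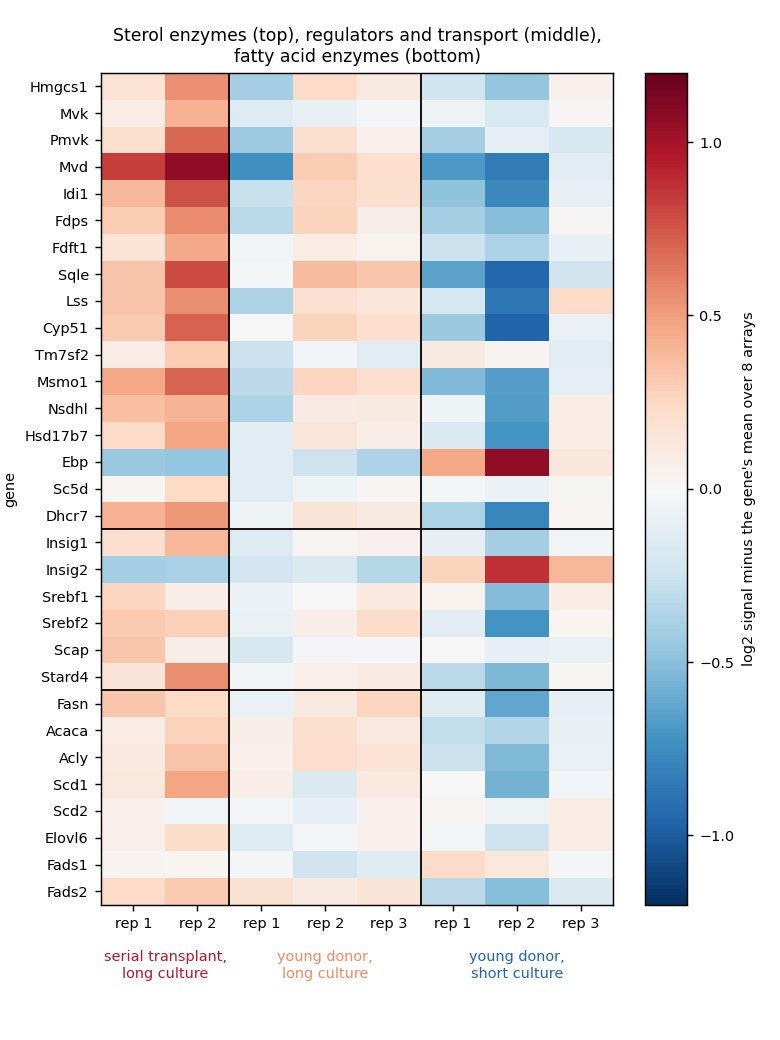
Log2 signal of each of the 31 members minus its mean over 8 arrays (colour), with genes in rows and arrays in columns, and lines between groups and between branches. Most sterol enzymes are red in both serial-transplant arrays and blue in young short-culture replicates 1 and 2 and in young long-culture replicate 1, and Ebp and Insig2 run the other way.

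Sterol enzymes also varied together between the arrays of a group. Young long-culture replicate 1 was the lowest of its group in 16 of the 17, whereas it was the lowest in 34.7% of all genes. Serial-transplant replicate 2 was the higher of its pair in 16 of 17, against 53.7% of all genes. Young short-culture replicate 2 was the lowest in 14 of 17, against 38.4%, and replicate 3 was the highest in 14 of 17, against 26.9%. The median range within a group was 0.24 in serial-transplant, 0.38 in young long-culture and 0.67 in young short-culture arrays for sterol enzymes, and 0.14, 0.21 and 0.27 for all genes. Mvd, which makes isopentenyl diphosphate, spanned 1.05 among the young long-culture replicates, and Lss, which closes squalene epoxide into lanosterol, spanned 1.10 among the young short-culture replicates.

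Against young short culture, the serial-transplant cells had 12 members higher and 2 lower, and 17 did not pass the test (limma, Benjamini-Hochberg adjusted p under 0.05 over all probe sets, n = 2 and 3). Among all genes, 4.10% were called higher and 5.96% lower, or 10.1% in either direction. The risers were 8 sterol enzymes (Mvd, Idi1, Fdps, Fdft1, Sqle, Cyp51, Msmo1 and Dhcr7), the transport gene Stard4 and the fatty acid enzymes Acaca, Acly and Fads2. Ebp and Insig2 fell. Without serial-transplant replicate 2, none of the 14 passed, while the changes moved less: Mvd was at 1.38 (adjusted p = 0.146), Dhcr7 at 0.80 and Insig2 at -0.93, and the sterol median was 0.57. In that fit, where the lone serial-transplant array is assumed to vary like the other groups, calls fell over all 28944 probe sets too, to 13 higher and 53 lower, against 1037 and 1491 with all arrays. A fit on the 5 arrays of these groups alone left the changes as they were and called 473 probe sets higher and 779 lower. It ended 8 of the 14 calls, those of Ebp (adjusted p = 0.0506), Cyp51 (0.0531), Fdps (0.0542), Dhcr7 (0.0606), Fdft1 (0.0623), Stard4 (0.0963), Acly (0.104) and Acaca (0.112). In bulk RNA, a different share of a cell type and a different level per cell cannot be told apart.

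The early enzymes turn acetyl-CoA into isoprenoid phosphates. Mvd had 10.25 and 10.49 in the serial-transplant arrays, 8.69, 9.73 and 9.62 in young long culture and 8.73, 8.58 and 9.29 in young short culture. Both serial-transplant arrays lay above all 6 others, and the young groups overlapped. Mvd was 2.83-fold higher in serial-transplant than in young short-culture cells (1.50 ± 0.28 log2, SE, adjusted p = 0.00931).

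Idi1, which isomerises isopentenyl diphosphate, had 11.67 and 12.04 in serial-transplant, 11.01, 11.54 and 11.47 in young long-culture and 10.80, 10.51 and 11.19 in young short-culture arrays. Serial-transplant arrays were again above all others, with a change of 1.02 ± 0.21 against young short culture (adjusted p = 0.0134), and a further Idi1 probe set gave 1.01 (adjusted p = 0.00949). Fdps, which makes farnesyl diphosphate, had 10.95 and 11.21 in serial-transplant, 10.32, 10.91 and 10.72 in young long-culture and 10.24, 10.13 and 10.66 in young short-culture arrays. Its serial-transplant arrays lay above all others, by 0.73 ± 0.19 against young short culture (adjusted p = 0.0379). The Fdps call was also lost without serial-transplant replicate 1, where the change was 0.86 (adjusted p = 0.0813), and without young long-culture replicate 3 or young short-culture replicate 1 or 2. Hmgcs1, which makes the HMG-CoA that feeds mevalonate synthesis, was at 0.58 (adjusted p = 0.106) and Pmvk, phosphomevalonate kinase, at 0.67 (adjusted p = 0.0559), and neither passed.

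The middle steps make squalene and close it into a sterol. Fdft1, squalene synthase, had 10.93 and 11.22 in serial-transplant, 10.73, 10.85 and 10.80 in young long-culture and 10.50, 10.39 and 10.67 in young short-culture arrays. The 3 groups did not overlap, and the change between serial-transplant and young short culture was 0.56 ± 0.12 (adjusted p = 0.0198), a call also lost without young short-culture replicate 1. A further Fdft1 probe set gave 0.53 and did not pass (adjusted p = 0.0671).

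Sqle, squalene epoxidase, a rate-controlling step after mevalonate, had 11.19 and 11.63 in serial-transplant, 10.83, 11.22 and 11.18 in young long-culture and 10.20, 9.90 and 10.61 in young short-culture arrays. All 5 long-culture arrays lay above the 3 short-culture arrays, and the long-culture groups overlapped. Sqle rose in both tests against short culture, as no other sterol enzyme did, by 1.17 ± 0.20 in the serial-transplant cells (adjusted p = 0.00720) and by 0.84 ± 0.18 in young long culture (adjusted p = 0.0162). Without young long-culture replicate 2 or 3, the second of these no longer passed (adjusted p = 0.0552 and 0.0718). Lss was at 0.73 in serial-transplant against young short culture and did not pass (adjusted p = 0.127).

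The late enzymes trim and reduce lanosterol to cholesterol. Cyp51, lanosterol demethylase, had 10.40 and 10.79 in serial-transplant, 10.08, 10.35 and 10.29 in young long-culture and 9.64, 9.12 and 10.00 in young short-culture arrays. The 3 groups did not overlap, and the change from young short culture was 1.01 ± 0.22 in the serial-transplant cells (adjusted p = 0.0162), whereas the 0.65 of young long culture did not pass (adjusted p = 0.0514). Msmo1, methylsterol monooxygenase, had 12.63 and 12.87 in serial-transplant, 11.86, 12.43 and 12.37 in young long-culture and 11.64, 11.51 and 12.05 in young short-culture arrays. It was 2.03-fold higher in the serial-transplant cells than in young short culture (1.02 ± 0.20, adjusted p = 0.0101), with both serial-transplant arrays above all others.

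Dhcr7, which catalyses a last reduction to cholesterol, had 10.98 and 11.08 in serial-transplant, 10.51, 10.72 and 10.67 in young long-culture and 10.18, 9.78 and 10.59 in young short-culture arrays. The serial-transplant arrays exceeded all others, by 0.85 ± 0.19 against young short culture (adjusted p = 0.0194). Without serial-transplant replicate 1 the change was 0.89 and did not pass (adjusted p = 0.0742). Nsdhl and Hsd17b7, which act with Msmo1 in demethylation, were at 0.59 and 0.62 and did not pass (adjusted p = 0.117 and 0.0802). Tm7sf2, a sterol reductase, and Sc5d, a sterol desaturase, were at 0.19 and 0.15 (adjusted p = 0.430 and 0.487).

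Ebp, the isomerase that moves a double bond in the sterol ring, was the only enzyme of this branch called lower than in short culture. In young long culture, Tm7sf2, Sc5d and Mvk were also slightly below short culture (-0.14, -0.03 and -0.02) and did not pass. Ebp had 7.47 and 7.45 in serial-transplant, 7.78, 7.67 and 7.54 in young long-culture and 8.38, 8.98 and 8.05 in young short-culture arrays. All 3 short-culture arrays were above all 5 long-culture arrays, and replicate 2 was the highest. Ebp was 2.01-fold lower in serial-transplant than in young short-culture cells (-1.01 ± 0.21, adjusted p = 0.0145) and 1.75-fold lower in young long culture (-0.81 ± 0.19, adjusted p = 0.0210). Without serial-transplant replicate 1, the first of these was -1.02 and did not pass (adjusted p = 0.0713). Without young short-culture replicate 2, the young long-culture change was -0.55 (adjusted p = 0.0228), and without young long-culture replicate 1, 2 or 3 it did not pass (adjusted p = 0.0530, 0.0555 and 0.0882).

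**Figure D2:**
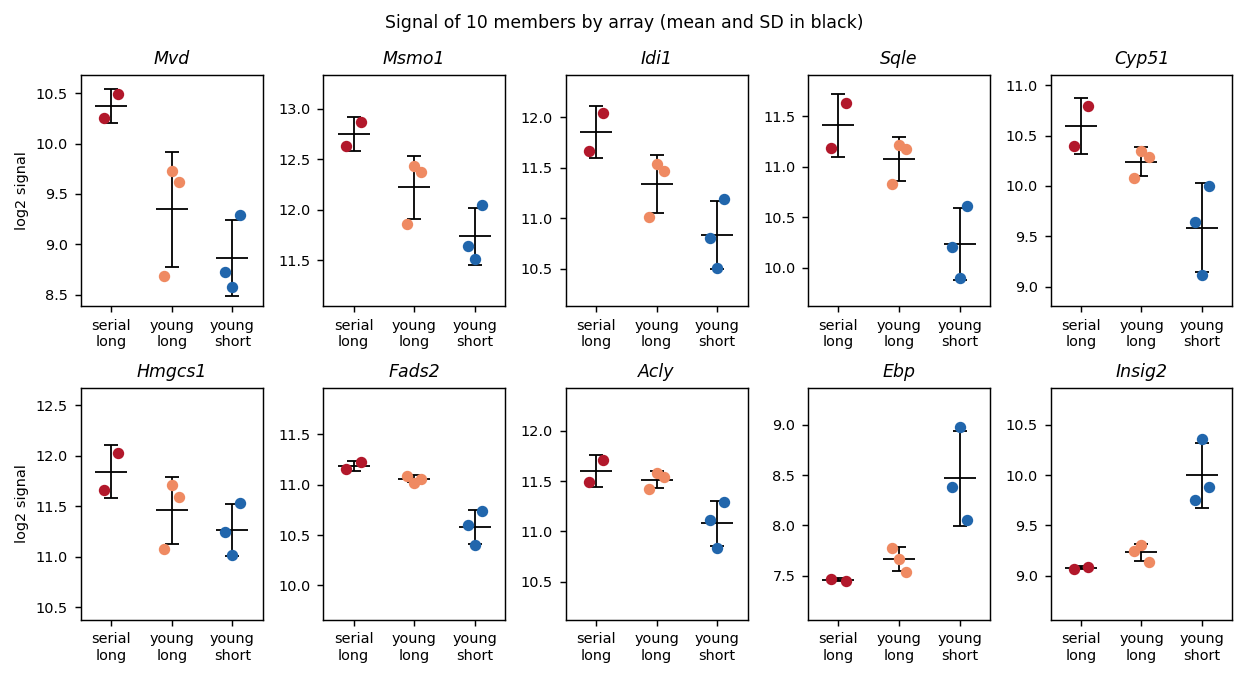
Log2 signal (vertical axes, each spanning the same range) of 10 members by group, with a point per array and the mean and SD in black. In Mvd, Msmo1 and Idi1 the serial-transplant arrays lie above all others, in Fads2 and Acly all long-culture arrays lie above short culture, and in Ebp and Insig2 the short-culture arrays are highest.

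Among the regulators, Insig2 fell in both tests against short culture while Insig1 did not pass in any. Insig2 had 9.07 and 9.09 in serial-transplant, 9.25, 9.31 and 9.14 in young long-culture and 9.75, 10.36 and 9.88 in young short-culture arrays. All 3 groups were apart, short culture highest. The changes were -0.92 ± 0.16 in the serial-transplant cells (adjusted p = 0.00731) and -0.76 ± 0.14 in young long culture (adjusted p = 0.00869). The young long-culture change kept an adjusted p of 0.0460 or less when any 1 array was left out, and was -0.58 without young short-culture replicate 2.

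Insig1, itself a target of SREBP, had 12.20 and 12.39 in serial-transplant, 11.84, 12.02 and 12.05 in young long-culture and 11.90, 11.59 and 11.96 in young short-culture arrays. The serial-transplant arrays lay above all others, but the change from short culture, 0.48 ± 0.14, did not pass (adjusted p = 0.0507). Srebf2, the factor chiefly tied to sterol genes, was at 0.57 (adjusted p = 0.0873), and Srebf1, chiefly tied to fatty acid genes, at 0.29 (adjusted p = 0.361). Scap was at 0.26 (adjusted p = 0.207). Stard4, which encodes a cytosolic sterol carrier, had 9.68 and 10.09 in serial-transplant, 9.50, 9.59 and 9.63 in young long-culture and 9.21, 8.99 and 9.54 in young short-culture arrays. Its serial-transplant arrays were the highest, by 0.64 ± 0.17 against short culture (adjusted p = 0.0362). The Stard4 call was lost without any 1 of 6 arrays, all but serial-transplant replicate 1 and young short-culture replicate 3.

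In the fatty acid branch, Acly, Acaca and Fads2 rose in both long-culture groups relative to short culture, in tests that share the short-culture arrays. Acly, which makes cytosolic acetyl-CoA from citrate, had 11.49 and 11.71 in serial-transplant, 11.42, 11.58 and 11.54 in young long-culture and 11.11, 10.84 and 11.29 in young short-culture arrays. The 5 long-culture arrays lay above the 3 short-culture arrays, by 0.52 ± 0.14 in the serial-transplant cells (adjusted p = 0.0427) and 0.43 ± 0.13 in young long culture (adjusted p = 0.0477). Acaca, acetyl-CoA carboxylase, had 10.75 and 10.94 in serial-transplant, 10.73, 10.86 and 10.78 in young long-culture and 10.37, 10.31 and 10.57 in young short-culture arrays. Again no long-culture array overlapped short culture, with changes of 0.42 ± 0.12 in the serial-transplant cells (adjusted p = 0.0485) and 0.37 ± 0.11 in young long culture (adjusted p = 0.0441). A further Acaca probe set gave 0.52 and 0.41.

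Each call of Acly and Acaca was lost in both comparisons without any 1 of 7 arrays, all but young short-culture replicate 3. Fads2, a desaturase of polyunsaturated fatty acids, had 11.15 and 11.22 in serial-transplant, 11.09, 11.02 and 11.06 in young long-culture and 10.60, 10.40 and 10.74 in young short-culture arrays. The long-culture arrays were tightly grouped above short culture, with changes of 0.61 ± 0.12 in the serial-transplant cells (adjusted p = 0.0106) and 0.47 ± 0.11 in young long culture (adjusted p = 0.0173). Without young long-culture replicate 1 or 3, the second of these did not pass (adjusted p = 0.0621 and 0.0712).

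Fasn, fatty acid synthase, had 11.06 and 10.97 in serial-transplant, 10.65, 10.84 and 10.99 in young long-culture and 10.58, 10.11 and 10.63 in young short-culture arrays. It did not pass in the serial-transplant cells (0.57 ± 0.16, adjusted p = 0.0501) or in young long culture (0.39 ± 0.14, adjusted p = 0.114), although no long-culture array overlapped short culture. The other desaturases and the elongase did not pass against short culture in either test. In the serial-transplant cells Scd1 was at 0.50, Scd2 at -0.00, Elovl6 at 0.19 and Fads1 at -0.09, and in young long culture these were 0.21, -0.04, 0.02 and -0.25.

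Young long against young short culture compares times in culture at an equal donor age. There, 4 members were called higher (Sqle, Acaca, Acly and Fads2) and 2 lower (Ebp and Insig2), where 6.10% of all genes were called higher and 6.69% lower, or 12.8% in either direction. The change was above 0 in 23 of 31 members, against 43.2% of all genes. The median change was 0.27 over sterol enzymes and 0.29 over fatty acid enzymes, and -0.04 over all genes. It was 0.30 over the spermatogonial markers and 0.53 over the cell division genes listed for comparison. In young short-culture replicate 2 both of those lists had a median deviation of -0.47, beside -0.43 for fatty acid enzymes and -0.66 for sterol enzymes. All arrays of young long culture lay above all of short culture in 7 of 31 members, against 16.2% of all genes, and below in 3 (Ebp, Insig2 and Fads1), against 17.8%. With either serial-transplant array left out, the medians stayed at 0.27 for sterol and 0.29 for fatty acid enzymes. Without young short-culture replicate 2, the median of fatty acid enzymes was 0.12 and that of sterol enzymes 0.20, and 2 members were higher. Likewise 2 were higher without young short-culture replicate 1, and 8 without young short-culture replicate 3. Over all probe sets, 1036 were higher and 1255 lower without short-culture replicate 2, and 1092 and 1185 without short-culture replicate 1. Without short-culture replicate 3 they were 1436 and 1759. Leaving out young long-culture replicate 2 left 1 higher and 1 lower, and leaving out replicate 3 left 0 higher and 1 lower. Without young long-culture replicate 1, 3 were higher and 1 lower. Calls over all probe sets fell in these fits as well, to 1155 higher and 1080 lower without replicate 2, 478 and 607 without replicate 3 and 597 and 786 without replicate 1, against 1573 and 1687 with all arrays. With quantile normalization 2 members were higher and 2 lower, while 1589 of all probe sets were called higher and 1459 lower.

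Between serial-transplant and young short-culture cells, the same medians were 0.67 for sterol enzymes and 0.46 for fatty acid enzymes, and -0.01 for all genes. The serial-transplant arrays lay above all short-culture arrays in 24 of 31 members, against 19.8% of all genes, and below in 2, against 20.4%. The change was above 0 in 27 of 31 members, against 48.1% of all genes. Without serial-transplant replicate 1, the medians were 0.83 for sterol and 0.52 for fatty acid enzymes. Without young short-culture replicate 1, 7 members were higher, and without replicate 2 of that group, 8 were higher. Over all probe sets, 670 were higher and 1109 lower without short-culture replicate 1, and 778 and 1302 without short-culture replicate 2. With all arrays these counts were 1037 and 1491.

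The 2 long-culture groups did not differ past the test in any member, nor in any gene (0.00% called in each direction by limma). A fit on these 5 arrays alone called 1 probe set higher and 14 lower, none of them a member. With no adjustment, 10 of 31 members had a p under 0.05, against 7.21% of all genes. The change was above 0 in 29 of 31 members, against 52.8% of all genes, and both serial-transplant arrays lay above all 3 young long-culture arrays in 20 of 31, against 15.1%. Both lay below in 2, Ebp and Insig2, against 11.4%. Of the 17 sterol enzymes, 12 lay above, and of the 8 fatty acid enzymes, 4. Since sterol enzymes varied together between arrays, these counts are not independent of one another.

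The smallest p-values in that comparison belonged to Mvd (1.02 ± 0.28, adjusted p = 0.426), Mvk (0.34, adjusted p = 0.590), Tm7sf2 (0.33, adjusted p = 0.606) and Msmo1 (0.53, adjusted p = 0.606). Mvk, mevalonate kinase, had 8.51 and 8.84 in serial-transplant, 8.27, 8.33 and 8.40 in young long-culture and 8.36, 8.24 and 8.44 in young short-culture arrays. Tm7sf2 had 7.64 and 7.86 in serial-transplant, 7.29, 7.52 and 7.43 in young long-culture and 7.66, 7.59 and 7.43 in young short-culture arrays. Mvk in the serial-transplant cells lay above all other arrays, while Tm7sf2 overlapped short culture. The median over sterol enzymes was 0.39, but 0.27 without young long-culture replicate 1 and 0.22 without serial-transplant replicate 2, and Mvd was at 0.69 without that young long-culture array. Fatty acid enzymes had a median of 0.15, and the difference between the branches was not tested.

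**Figure D3:**
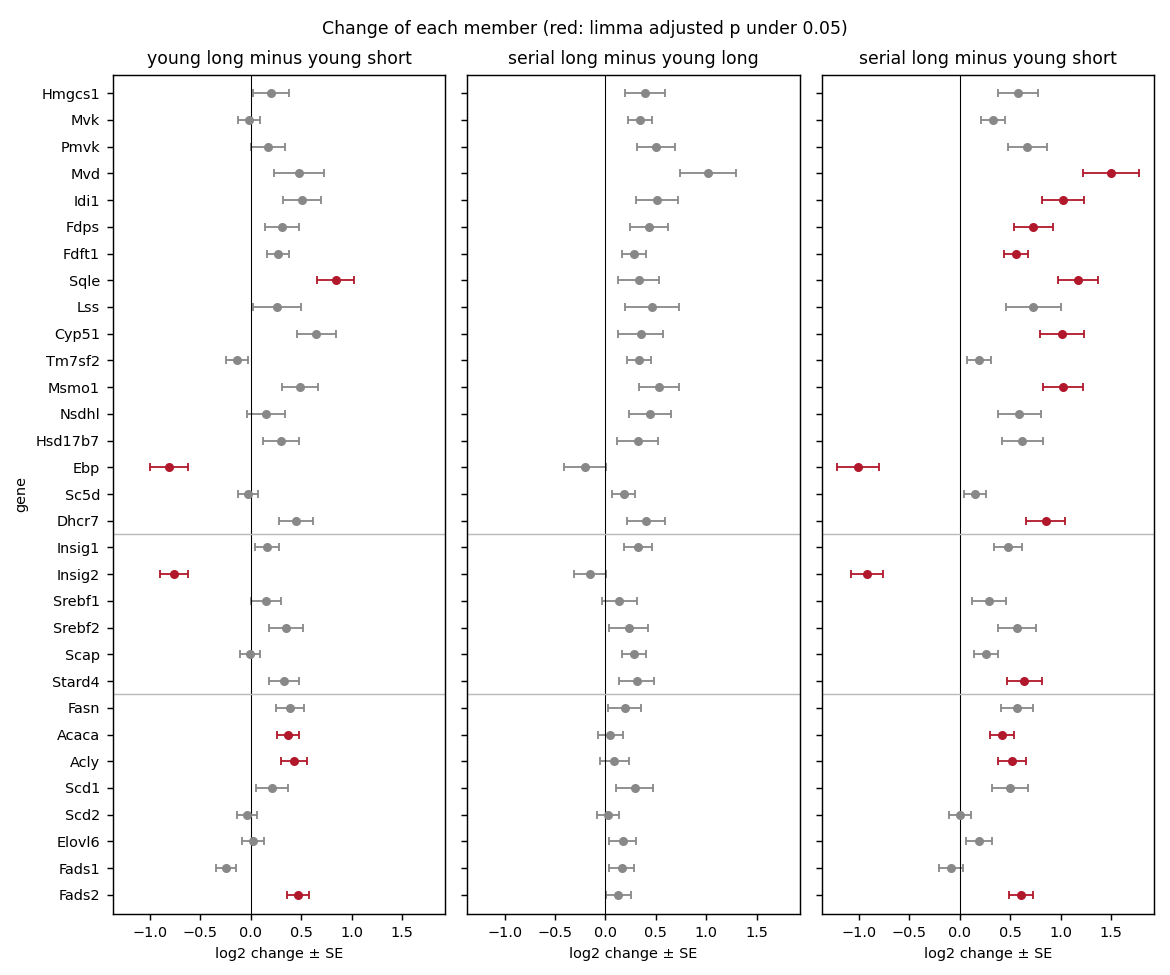
Log2 change (horizontal axes, with SE) of the 31 members, the first-named group minus the second, in the 3 comparisons, with red points for a limma adjusted p under 0.05 and grey lines between the branches. Sqle, Acaca, Acly, Fads2, Ebp and Insig2 are red on the left, no member is red in the middle, and 14 are red on the right.

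Further genes of sterol and fatty acid handling were tested in the same fit. Of 30 measured, 4 rose and 1 fell in the serial-transplant cells against young short culture, 4 rose and 1 fell in young long against short culture, and 0 passed between the long-culture groups, where 6 had an unadjusted p under 0.05. Among all genes, 4.10% rose and 5.96% fell in the first of these comparisons, 6.10% rose and 6.69% fell in the second, and 7.21% had an unadjusted p under 0.05 in the third. The counts are small, and 1 of 30 falling is no more than these shares. Their median changes in these comparisons were 0.05, 0.01 and -0.00. Elovl7, an elongase, had 7.24 and 7.28 in serial-transplant, 7.32, 7.44 and 7.53 in young long-culture and 6.05, 5.82 and 6.52 in young short-culture arrays. Its short-culture values all lay below the 6.94 mark, where a signal can be background, so the size of its rise is uncertain (adjusted p = 0.00478 in the serial-transplant cells and 0.00134 in young long culture).

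Abcg1, which exports sterols and is a target of the liver X receptors, had 9.53 and 9.43 in serial-transplant, 9.76, 9.52 and 9.66 in young long-culture and 8.73, 8.59 and 9.26 in young short-culture arrays. It was higher in long culture with no overlap, by 0.62 ± 0.17 in the serial-transplant cells (adjusted p = 0.0478) and 0.79 ± 0.16 in young long culture (adjusted p = 0.0102). Elovl5, an elongase of polyunsaturated fatty acids, rose by 0.51 in the serial-transplant cells (adjusted p = 0.0370) and 0.44 in young long culture (adjusted p = 0.0374). Mcat, of mitochondrial fatty acid synthesis, rose by 0.49 in the serial-transplant cells (adjusted p = 0.0410) and was at 0.39 in young long culture (adjusted p = 0.0522). Abca1, a cholesterol exporter, was at 0.16 in the serial-transplant cells (adjusted p = 0.547) and rose by 0.40 in young long culture (adjusted p = 0.0449). Npc2, which moves cholesterol out of lysosomes, fell by 0.67 on the log2 scale in the serial-transplant cells (adjusted p = 0.0246) and by 0.61 in young long culture (adjusted p = 0.0199).

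Other gene lists moved with the same groups and arrays. Of 10 fibroblast markers, 8 fell in the serial-transplant cells and 9 in young long culture against short culture, and none passed between the long-culture groups. Their list mean lay between 8.57 and 9.25 in serial-transplant, 9.09 and 9.16 in young long-culture and 9.85 and 10.35 in young short-culture arrays, and the highest was replicate 2 of short culture. Serial-transplant replicate 2, with the highest sterol median, had the lowest fibroblast median (-0.88, against -0.18 in replicate 1), whereas young long-culture replicate 1, low in sterol enzymes, had a fibroblast median of -0.32, near the -0.27 and -0.28 of its group. Lum was below the lower quartile of every array.

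Of 9 cell division genes, 2 rose in the serial-transplant cells and 4 in young long culture, with list means of 9.88 to 10.12 in serial-transplant, 10.01 to 10.31 in young long-culture and 9.39 to 9.83 in young short-culture arrays. Of the 11 spermatogonial markers, 3 rose and 1 fell in the serial-transplant cells, and 5 rose and 1 fell in young long culture, each against short culture. Among all genes, 4.10% rose and 5.96% fell in the first comparison, and 6.10% and 6.69% in the second. The markers differed in direction. Id4 lay at 8.05 to 8.16 in long culture and 8.67 to 9.15 in short culture, whereas Kit lay at 10.06 to 10.35 and 8.53 to 9.30. Of 7 macrophage and 5 Leydig markers, 4 and 2 fell in the serial-transplant cells and 4 and 3 in young long culture, and 1 of each list had a mean over the 6.94 mark. Macrophage list means were 5.77 to 5.85 in serial-transplant, 5.63 to 5.75 in young long-culture and 6.48 to 6.92 in young short-culture arrays, and those of Leydig markers were 5.48 to 5.53 in serial-transplant, 5.41 to 5.50 in young long-culture and 6.10 to 6.55 in young short-culture arrays. None of 6 adipocyte markers reached that mark, and none passed any test, with list means from 5.29 in young long culture to 5.57 in young short culture. Of 6 Sertoli markers, 1 rose and 1 fell in the serial-transplant cells and 1 rose in young long culture, each against short culture. The part of these lists in the sterol and fatty acid results was not tested. With young short-culture replicate 2 and young long-culture replicate 1 both left out, 10 members were higher and 2 lower in the serial-transplant cells than in short culture. Over all probe sets, that fit called 874 higher and 1338 lower, against 1037 and 1491 with all arrays. These 2 arrays were chosen after seeing the data.

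**Figure D4:**
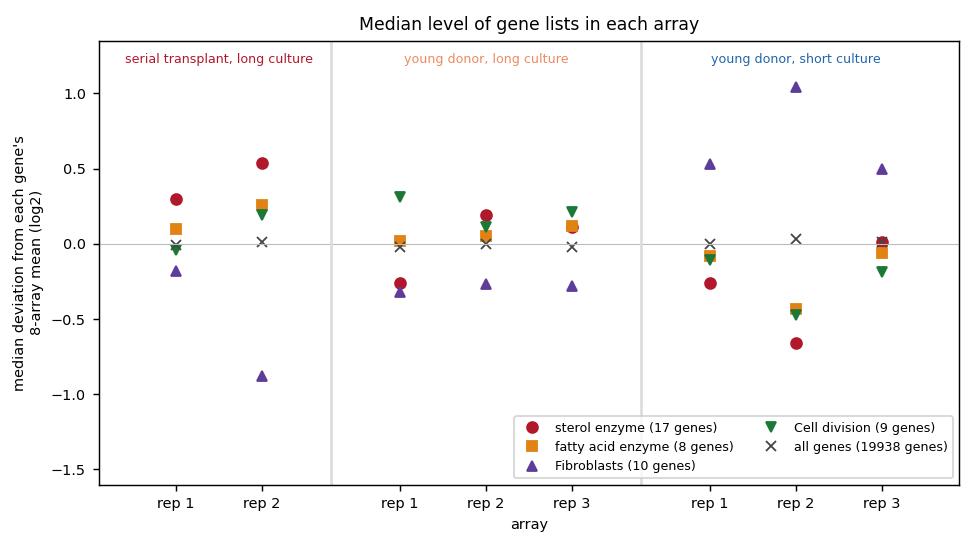
Median deviation of gene lists from each gene's 8-array mean (vertical axis, log2) in each array (horizontal axis, grouped as labelled). Sterol enzymes reach 0.54 in serial-transplant replicate 2, where fibroblast markers are at -0.88, and -0.66 in young short-culture replicate 2, where fibroblast markers are at 1.04, while all genes stay near 0.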

How the data were processed

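The values deposited by the authors are log2 signals. Per the submitters' processing notes, they come from RMA in Partek 6.4, and per the labels' protocols from biotin-labelled cRNA of 100 ng total RNA. RMA subtracts background and equalises the arrays before it combines the probes of a set, which can shrink differences shared by many genes. Its settings: not given in the sources used here. Of 35557 rows, 6613 numbered in a run before the main numbering were taken, from that numbering, to be controls and left out. Of the 28944 tested, 21789 have 1 symbol, 1621 several and 5534 none.

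The 3 group contrasts were two-sided limma tests (version 3.58.1, R 4.3.3) on all 8 arrays with 1 coefficient per group (5 residual and 6.28 prior degrees of freedom), adjusted by Benjamini-Hochberg over all probe sets at 0.05. Errors are SE from limma. The step was tested on simulated data. Every member was named, and values in each array were given for those that passed in any comparison, filled to 4 by the smallest p. Fasn, Insig1, Abcg1 and Elovl7 were added after their values were seen, as were the 6 promoters. The members and lists were chosen with earlier results of these data known. Fits with only the groups compared, an intensity trend, array weights, quantile normalization, centring, dim probe sets left out, the mean of all probe sets, a replicate block and each array left out were tried. The number of arrays limits the precision.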

Additional observations from a re-analysis of the deposited data

How the results depend on the processing

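The sterol and fatty acid medians stayed above 0 in all 3 comparisons under every alternative tried. Counts of calls moved more. With only the groups compared in the fit, 5 members were higher and 1 lower in serial-transplant against young short culture (12 and 2 with all arrays), and 2 were higher in young long against short culture (4 with all arrays). Over all probe sets the same fit called 473 higher and 779 lower in serial-transplant against young short culture (1037 and 1491 with all arrays). It called 1367 and 1461 in young long against short culture (1573 and 1687 with all arrays). In young long against short culture, quantile normalization also left 2 members higher, with 1589 probe sets called higher and 1459 lower. Leaving out young short-culture replicate 2 and young long-culture replicate 1 together, chosen after seeing the data, left 1 higher in that comparison. Over all probe sets that fit called 545 higher and 858 lower there. Leaving out each array in turn gave 0 to 18 higher and 0 to 2 lower members in the serial-transplant cells against short culture, 0 to 8 higher and 1 to 2 lower in young long culture, and 0 in either direction between the long-culture groups. The median of fatty acid enzymes in young long culture then ranged from 0.12 to 0.37. A lone serial-transplant array is assumed to vary like the other groups. Array weights gave 2488 probe sets higher and 2591 lower in young long against short culture, against 1573 and 1687 without them. Leaving out arrays lowers the degrees of freedom, and any other cause of lost calls was not tested. Replicates of different groups share only a number: same-numbered young arrays had deviations correlating at 0.081, 0.176 and 0.102, and not every array correlated best with its own number. With the replicate block 16 members were higher in the serial-transplant cells and 3 in young long culture, each against short culture. Over all probe sets that fit called 1005 higher and 1463 lower in the first comparison, and 1265 and 1489 in the second. With no block these were 1037 and 1491, and 1573 and 1687. None of the 24 single-gene changes and 6 branch medians compared under the alternatives changed sign. The signs of the other member changes were not compared.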
